A study of Mus musculus with 3 samples.

Results

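Gene expression of 4T1 CSCsp was compared between a co-culture with splenocytes of reinforced activation (the library labelled R) and a co-culture with splenocytes that were primed by tumor antigen only (the library labelled P). Of 24402 gene symbols in the files, 11210 had a level of at least 1 FPKM in either library, and these are the genes measured here. FPKM is a count of read pairs scaled by transcript length and by library depth, and it was summed over the transcripts of a gene. 4T1 is a triple negative breast cancer line of BALB/c mice, and CSCsp are spheroids grown for 7 days without attachment, which enriches cells with stem cell properties. Splenocytes came from mice that had carried 4T1 tumors for 28 days. For R they were stimulated with beads coated with antibodies to CD3 and CD28 together with IL2, and for P they were not. A further library is labelled as CSCsp with no co-culture (N). These descriptions of N and P follow the labels, and a doubt about them is given below. Exposure lasted 2 days, spheroids were recovered over a strainer of 40 µm, and RNA of 4 independent experiments was multiplexed by the study's methods, so that each condition is 1 library. Differences between these libraries therefore have no replicate check, and the intervals given below (exact Clopper-Pearson, 95%) cover counting error only.

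Interferon gamma, which activated T cells and NK cells secrete, acts through the receptor chains IFNGR1 and IFNGR2 and the kinases JAK1 and JAK2. Promoters of its early targets hold gamma-activated sites, and IRF1, itself such a target, binds interferon-stimulated response elements. Targets include the guanylate-binding proteins and immunity-related GTPases, which attack the vacuoles of intracellular pathogens, the MHC genes that present peptides to T cells, and the chemokines CXCL9, CXCL10 and CXCL11 that attract T cells. Spheroids of tumor cells are also known for a poorly oxygenated core, in which hypoxia-inducible factors bind hypoxia response elements and raise glycolytic enzymes, glucose uptake and angiogenic factors.

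Which of the libraries labelled N and P held the primed co-culture is in doubt. The name under which the library labelled P was deposited refers to no treatment, and that of N points to the saline that held primed splenocytes when they were not reinforced. Libraries are therefore named by their labels throughout, the ratio of R over N is set beside that of R over P, and levels are given in the order N, P and R. The comparisons share the library labelled R. The libraries hold about 17894139 (N), 17887652 (P) and 19178982 (R) fragments. RNA was taken from the recovered spheroids in bulk, and leukocyte RNA could be in it. Of 103 annotated leukocyte marker genes, 24 reached 1 FPKM in N, 13 in P and 28 in R. T cell markers were near 0 in each library, with a summed level over the list of 1.40 FPKM (N), 1.55 (P) and 2.41 (R). Of the 18 annotated T cell markers 8 were listed at 0 in N, 12 in P and 3 in R. Gzmb, the 1 measured gene of the NK and cytotoxic cell markers, lay at 0.275, 0 and 1.58 FPKM. Epithelial markers of 4T1 were high in each, and Epcam lay at 285, 242 and 245 FPKM.

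The library labelled R was apart from the library labelled P mainly on the higher side. At least 2-fold higher (FPKM plus 0.1) in R were 465 genes, which is 4.15% of the genes measured, and at least 2-fold lower were 189 genes, which is 1.69%. At 4-fold or more, 182 genes were higher and 24 lower. Over all genes measured the median log2 ratio was 0.029, so that most genes lay near equal levels. Against the library labelled N, 344 of 11200 genes (3.07%) were at least 2-fold higher in R and 210 (1.88%) at least 2-fold lower. Of the 465 higher genes 143 were under 1 FPKM in P, and of the 189 lower genes 88 were under 1 FPKM in R, so that these passed the filter through 1 library only. Counts and medians over measured members describe only the members that passed. The 48 pathway lists hold 176 of the 465 higher and 42 of the 189 lower genes.

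**Figure D1:**
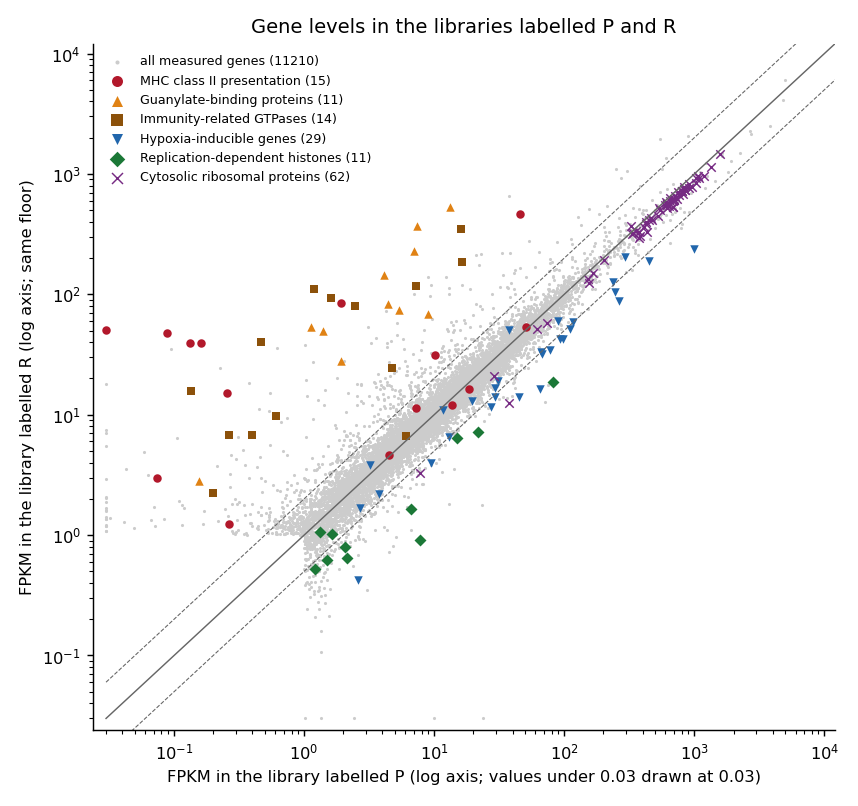
FPKM of the 11210 measured genes labelled P (horizontal, log axis) and labelled R (vertical, log axis), 1 point per gene, with 6 gene lists marked; the solid line marks equal levels and the dashed lines a 2-fold ratio, and values under 0.03 are drawn at 0.03. Guanylate-binding proteins, immunity-related GTPases and MHC class II genes sit far above the upper dashed line, while ribosomal protein genes follow the line of equal levels and hypoxia-inducible and histone genes lie below it.

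The guanylate-binding proteins, large GTPases that coat pathogen vacuoles, were the family furthest above P. All 11 annotated members passed the 1 FPKM filter, and 11 of 11 were at least 2-fold higher in R, against a background of 4.15% of genes. Their log2 ratios had a median of 4.99 for R over P and 3.92 for R over N. Gbp2 lay at 25.9 FPKM in N, 13.3 in P and 528.5 in R. This is a ratio of 39.7 for R over P (interval 36.6 to 43.2) and of 20.4 for R over N. Gbp2b, its neighbour on chromosome 3, lay at 16.3, 7.37 and 369.6 FPKM. Gbp10 on chromosome 5 lay at 1.07, 1.14 and 53.3 FPKM. The member least apart was Gbp9, at 12.2, 8.98 and 68.7 FPKM, and it still stood 7.65-fold above P. Of the 11 members 9 share a locus with another symbol, and how StringTie split reads among neighbours adds error that the intervals leave out. Gbp5, which promotes inflammasome assembly and has a locus of its own, lay at 3.20, 1.40 and 49.96 FPKM, a ratio of 35.8 (interval 28.7 to 45.2).

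Immunity-related GTPases, the smaller GTPases of the same defence, followed closely. Of 14 measured members 13 were at least 2-fold higher in R than in P and 13 also in R than in N, with medians of 4.12 and 3.97. Among the 14, 6 were under 1 FPKM in P. Tgtp1 lay at 2.096, 1.18 and 110.4 FPKM, a ratio of 93.3 for R over P (interval 72.2 to 123). Its near copy Tgtp2 lay at 2.35, 1.599 and 93.4 FPKM, and reads of the pair may be split between them. Both were low in N and P and among the most abundant GTPases in R. Igtp lay at 28.8, 16.0 and 348 FPKM. Irgm1, a regulator of the other family members, lay at 23.3, 16.3 and 187 FPKM. Iigp1 lay at 2.38, 2.46 and 80.5 FPKM, so that its ratio was 32.7 over P and 33.8 over N. The exception was Irgq, at 5.87, 6.12 and 6.62 FPKM, with a ratio whose interval of 0.973 to 1.20 includes 1.

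Promoters of some genes that stood higher are shown for their known interferon motifs. Windows from RefSeq (GRCm38.p6, 250 bases before to 50 after each start) were searched on both strands for the gamma-activated site TTCNNNGAA and for the interferon-stimulated response element, read as a pair of GAAA repeats with 2 bases between them. Of 27025 genes with a window, 9.55% held the first and 3.99% the second. Of the 321 genes with a window at least 2-fold higher in R than in P, 17.8% held the first and 23.7% the second, and of the 8055 genes within 2-fold 7.86% and 3.10%. Among the guanylate-binding proteins 5 of 5 windows held the response element, and among the immunity-related GTPases 7 of 10 held it and 5 of 10 the gamma-activated site. Of the antiviral list 19 of 36 windows held the response element and 8 of 36 the gamma-activated site. Matches were fewer in MHC class I (4 and 1 of 17), MHC class II (1 and 1 of 11) and the immunoproteasome list (1 and 1 of 7). The 250 bases before the start are printed 5′ to 3′ on the gene's own strand, with matches in capitals, for a guanylate-binding protein, 2 immunity-related GTPases and the transcription factor Irf1. They lie at chr3:142620413-142620662 (plus strand), chr11:48992247-48992496 (minus strand), chr11:58214727-58214976 (plus strand) and chr11:53769764-53770013 (plus strand).
Gbp2: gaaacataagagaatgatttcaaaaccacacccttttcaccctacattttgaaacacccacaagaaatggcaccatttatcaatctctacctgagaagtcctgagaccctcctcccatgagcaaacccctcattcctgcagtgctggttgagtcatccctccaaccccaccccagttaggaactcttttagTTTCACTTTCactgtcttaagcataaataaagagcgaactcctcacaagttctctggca
Tgtp1: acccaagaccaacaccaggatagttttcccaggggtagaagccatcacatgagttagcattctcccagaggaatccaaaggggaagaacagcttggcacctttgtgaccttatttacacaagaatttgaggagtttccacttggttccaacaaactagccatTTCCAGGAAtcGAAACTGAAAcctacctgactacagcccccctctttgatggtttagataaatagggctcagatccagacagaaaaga
Irgm2: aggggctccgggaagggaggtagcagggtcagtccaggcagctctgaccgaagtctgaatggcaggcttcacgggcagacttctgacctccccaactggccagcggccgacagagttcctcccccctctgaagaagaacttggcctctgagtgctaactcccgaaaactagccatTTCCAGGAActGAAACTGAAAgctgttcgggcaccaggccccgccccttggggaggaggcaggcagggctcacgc
Irf1: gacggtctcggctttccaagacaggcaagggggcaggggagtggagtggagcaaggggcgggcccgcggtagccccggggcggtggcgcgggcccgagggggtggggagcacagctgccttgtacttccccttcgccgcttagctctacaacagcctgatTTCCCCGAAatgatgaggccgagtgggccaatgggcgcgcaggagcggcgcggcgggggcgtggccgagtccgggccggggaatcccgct
The response element of Gbp2 begins 59 bases before the start. In Tgtp1 the gamma-activated site begins 88 and the response element 77 bases before the start, and in Irgm2 they begin 75 and 64 bases before it, so that both promoters hold the pair at the same spacing. Irf1 holds only the gamma-activated site, 90 bases before its start. A match of letters is a description and not a measured binding site.

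**Figure D2:**
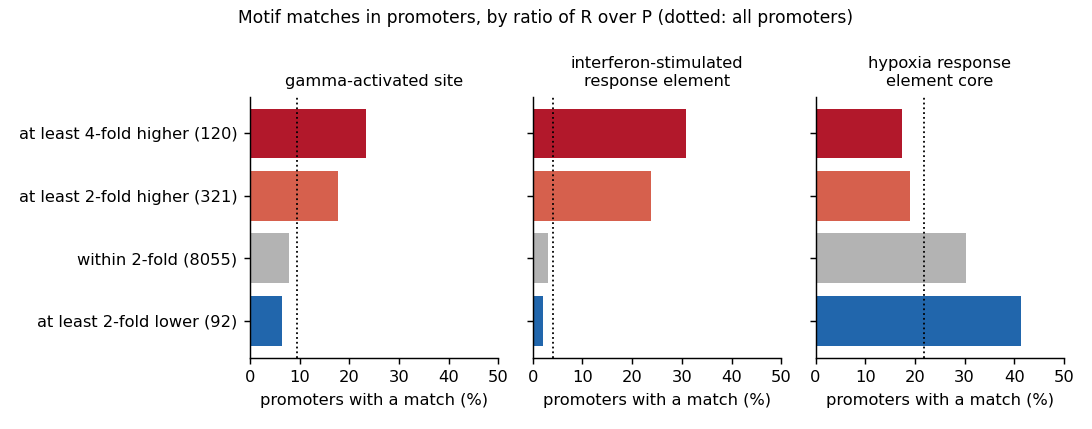
Share of RefSeq promoter windows (horizontal, percent) with at least 1 match to each of 3 motifs, for genes grouped by the ratio of R over P, with the number of genes that have a window in parentheses and a dotted line at the share over all windows. Matches to the interferon-stimulated response element are in 30.8% of windows of genes at least 4-fold higher and in 2.17% of those at least 2-fold lower, and the hypoxia core is in 17.5% and 41.3%.

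Several chains of MHC class II presentation were at or near 0 in the library labelled P and abundant in R. Of 15 measured genes 10 were at least 2-fold higher and 0 lower, with medians of 3.34 over P and 2.04 over N. Among the 15, 7 were under 1 FPKM in P, and the median over P was 1.88 with no filter, 1.89 with a pseudocount of 1 FPKM and 1.75 over genes with an unshared locus. Ciita, the master activator of class II genes, lay at 0.320, 0.256 and 15.1 FPKM. Its ratio was 58.9 over P (interval 40.0 to 90.4) and 47.1 over N. The chains of the class II molecule were higher as well. H2-Ab1 lay at 3.06, 1.92 and 84.4 FPKM, and H2-Eb1 at 1.23, 0.0876 and 47.8. H2-Aa is listed at 0 in the library labelled P, at 1.03 FPKM in N and at 50.9 in R. Cd74, the invariant chain that guides class II molecules, was well expressed in every library, at 68.0, 46.1 and 466 FPKM, and was 10.1-fold higher in R than in P. H2-DMb1 and H2-DMb2, which load peptide and share 1 locus, lay at 39.4 and 39.6 FPKM in R and under 1 in the other libraries. The constitutive factors Rfx5, Rfxank and Rfxap, which cooperate with CIITA, lay within 2-fold, for instance Rfxank at 4.38, 4.51 and 4.67 FPKM. The protease Ctss was at 3.59, 0.0734 and 2.98 FPKM, high in N and R and low in P.

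Class II genes are also expressed by B cells and macrophages, and transcripts of such cells differed between the libraries too. Over the whole list of B and plasma cell markers, the summed level was 13.1 FPKM in N, 9.18 in P and 11.2 in R. Most of it was from Blnk, and without Blnk the other 9 markers summed to 2.24, 0.437 and 3.53 FPKM, with 6 of 9 listed at 0 in P. Jchain, the joining chain of secreted antibodies, lay at 0.233, 0 and 1.07 FPKM. Assembled transcripts over the antibody genes Ighm and Igkc, which carry no symbol in the files, lay at 8.32 and 8.03 FPKM in R and are listed at 0 in P. The sum without Blnk was thus lowest in P and highest in R, but single markers differed, with Mzb1 highest in N at 1.09, 0.199 and 0.856 FPKM. Of 18 annotated macrophage and monocyte markers 2 reached 1 FPKM in P and 4 in R. Lyz2 lay at 28.9, 0.313 and 6.51 FPKM, highest in N. Mpeg1, a pore-forming protein of macrophages, was at 0.697, 0.227 and 24.5 FPKM and did not follow Lyz2. The part of leukocytes in the class II values was not tested, and more cells of a type cannot be told apart from more RNA per cell in these bulk libraries. Reads of a BALB/c line were aligned to a C57BL/6 reference, which differs in MHC sequence.

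Most measured genes of MHC class I presentation, from peptide supply to the chains at the cell surface, were higher in R. Of 27 measured genes 20 were at least 2-fold higher and 1 lower, with medians of 1.40 over P and 1.20 over N. Nlrc5, the class I counterpart of CIITA, lay at 5.68, 5.75 and 42.8 FPKM, a ratio of 7.44 over P and 7.53 over N. Tap1, a chain of the peptide transporter, lay at 32.0, 20.9 and 214 FPKM. Erap1, which trims peptides, lay at 5.46, 4.55 and 20.9. The heavy chain H2-K1 lay at 352, 303 and 1050 FPKM, and B2m, the light chain, at 999.7, 888 and 2062. High basal levels and smaller ratios thus set class I apart from class II. The general chaperones of the route were closer to equal, with Calr at 360, 291 and 455 FPKM and Canx at 101, 93.8 and 104. H2-Q1, the 1 lower member, lay at 9.95 FPKM in P, is listed at 0 in N and was under 0.01 in R, but its neighbours in the H2-Q cluster are near copies between which reads can be shared.

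The proteasome showed the contrast between its induced and its constant parts. Immunoproteasome subunits replace catalytic subunits of the standard particle and favour peptides that fit class I. Of 7 measured genes of this list with the PA28 activator, 6 were at least 2-fold higher in R, with medians of 1.80 over P and 1.10 over N. Psmb9 lay at 34.6, 22.2 and 176 FPKM, a ratio of 7.93 (interval 7.25 to 8.69). Psmb10 lay at 52.4, 33.3 and 222 FPKM and Psmb8 at 160.3, 126 and 441. Psme1 and Psme2, the chains of PA28, lay at 288 and 168 FPKM in R and at 112 and 59.2 in P. Of 34 measured constitutive proteasome genes 0 were 2-fold apart in either direction, yet all 34 had a log2 ratio above 0, with a median of 0.48 over P and 0.36 over N.

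**Figure D3:**
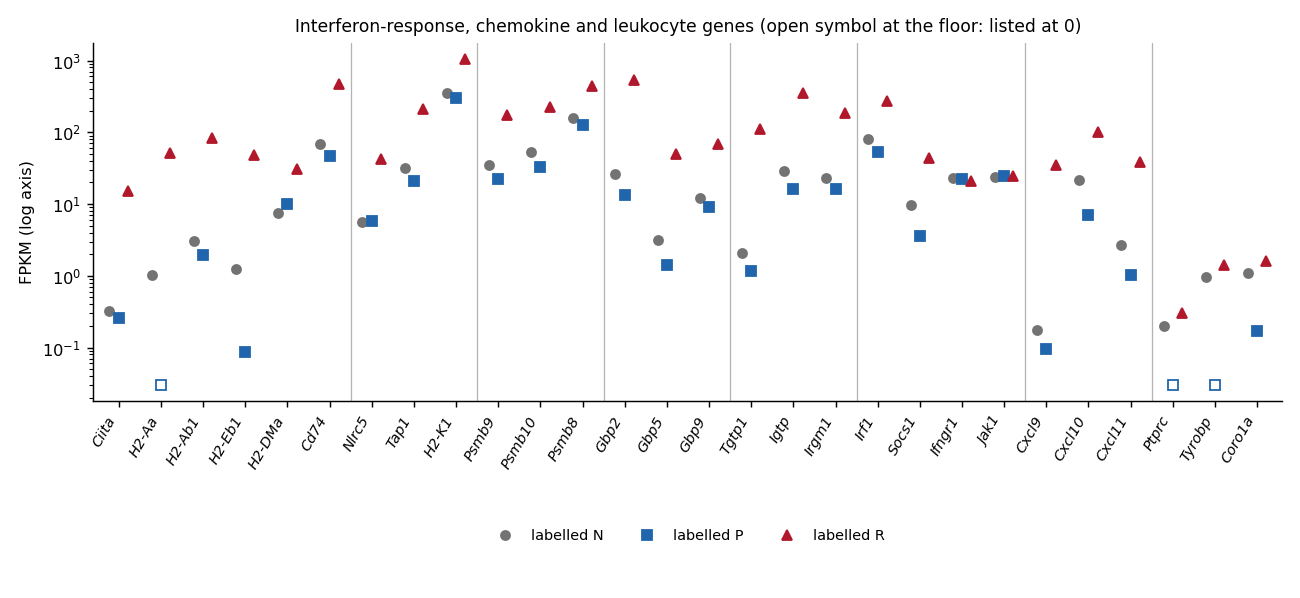
FPKM (log axis) of 28 genes in the libraries labelled N (grey circles), P (blue squares) and R (red triangles), 1 library each, ordered by gene list with vertical lines between lists; open symbols at the floor mark a gene listed at 0. The MHC, proteasome, GTPase and chemokine genes are highest in R, for example Gbp2 at 528.5 FPKM, whereas Ifngr1 and Jak1 lie at nearly equal levels. The pan-leukocyte genes drawn, Ptprc, Tyrobp and Coro1a, stay under 2 FPKM in every library and are lowest in P. Some others of that list are higher and closer to equal, such as Itgb2 at 26.3 (N), 35.9 (P) and 34.1 (R) FPKM.

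Antiviral genes, the classical response to type I interferon that interferon gamma also reaches, were higher as a group and by smaller ratios. Of 48 measured genes 40 were at least 2-fold higher in R than in P and 33 in R than in N, with medians of 1.71 and 1.48. Ifi44l lay at 0.825, 0.550 and 15.3 FPKM. Zbp1, a sensor of Z-form nucleic acid that can start necroptosis, lay at 19.2, 9.43 and 120.0 FPKM. Ifit3 lay at 21.2, 13.0 and 112 FPKM and Samhd1, which breaks down deoxynucleotides, at 14.3, 13.1 and 101. Among the most abundant members, Ifitm3 lay at 829, 602 and 1346 FPKM. Members of this group that did not follow included Ifi27, at 191, 168 and 152 FPKM, and Mx2, which lay at 21.4 FPKM in N, 8.82 in P and 10.9 in R and so was highest in N. By symbol, the families Ifi (8 of 11 measured genes 2-fold higher, median 1.83), Oas (5 of 6, median 1.67) and Parp (6 of 12, median 0.93) were among the 8 highest of 283 families.

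Members of interferon signaling were apart in part. Of 28 measured genes of the list 12 were at least 2-fold higher in R than in P and 0 lower, with medians of 0.60 over P and 0.23 over N. By class, 5 of 8 IRF factors, 2 of 6 STAT factors, 2 of 4 genes of the SOCS family, 1 of 4 receptor chains and 0 of 3 kinases were 2-fold higher. Irf1 lay at 79.4, 53.4 and 275 FPKM. Irf8 lay at 7.58, 4.62 and 40.9 FPKM, and Batf2, which partners IRF1 in macrophages, at 1.22, 0.620 and 35.6. The inhibitor Socs1 lay at 9.82, 3.54 and 43.5 FPKM, a ratio of 12.3. Cish, a related inhibitor induced by STAT5, was equally high in N and R, at 11.3 and 13.1 FPKM, and low in P at 1.28. Socs2 lay at 1.04, 1.31 and 0.926 FPKM and stayed within 2-fold. Of the receptor chains Ifnar2 was the higher one, at 15.8, 11.9 and 29.1 FPKM. Ifngr1 lay at 23.2, 22.1 and 20.7 FPKM and Jak1 at 23.9, 24.7 and 24.6. No gene for an interferon itself was measured: of 18 listed interferon genes 0 reached 1 FPKM in P or R.

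Chemokines fell into those highest in R alone, those about as high in N and those highest in N. Cxcl9 lay at 0.174, 0.0939 and 34.9 FPKM, with a ratio of 372 over P (interval 159 to 1147) and 201 over N. Nearly all of it was an assembled transcript listed at 0 in N and P. Cxcl10 lay at 21.7, 7.00 and 101 FPKM and Cxcl11 at 2.64, 1.02 and 38.1, so that all CXCR3 ligands were highest in R and lowest in P. The T cell list as a whole had 5 of 7 measured genes 2-fold higher, with medians of 1.26 over P and 0.71 over N, and with 2.51 over P at a filter of 5 FPKM. Ccl5, another attractant of T cells, was closer, at 9.72, 6.81 and 12.8 FPKM. Ccl22 lay at 2.83, 0.0344 and 0.311 FPKM and was highest in N.

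Factors that attract or expand neutrophils and monocytes depended on the library R was set against. Of 7 neutrophil chemokines and growth factors 5 were at least 2-fold higher in R than in P, with a median of 1.76 (0.99 with no filter), and 2 in R than in N, with a median of 0.24. Csf3, the granulocyte growth factor that 4T1 tumors are known to secrete, lay at 59.2, 22.8 and 217 FPKM and was highest in R against both. Cxcl1, at 127, 41.4 and 151 FPKM, was about as high in N as in R. Cxcl3, at 4.56, 0.690 and 1.14 FPKM, was highest in N. Of 6 measured monocyte factors 4 were 2-fold higher in R than in P, with a median of 3.48, and 3 of the 6 were under 1 FPKM in P. This median was 1.43 with a pseudocount of 1 FPKM and 0.69 both with no filter and at 5 FPKM. Over N, where 9 were measured, it was 0.046. Ccl2 lay at 11.5, 3.26 and 39.7 FPKM and Ccl6 at 6.38, 0.0702 and 1.70. Leukocyte markers were also lowest in P. Of 16 annotated neutrophil markers 9 reached 1 FPKM in N, 4 in P and 10 in R, and of 20 pan-leukocyte markers 8, 4 and 9. S100a8 lay at 8.20, 0.546 and 5.58 FPKM, and Ptprc, the common leukocyte antigen CD45, at 0.201, 0 and 0.305. The part of leukocyte RNA in these chemokine values was not tested.

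Other cytokines and immune ligands were mixed. The interleukin list had 9 measured genes, among them the cytokines Tnf and Tslp. Of the 9, 4 were at least 2-fold higher in R than in P. The list median was 0.56 over P (0.37 with a pseudocount of 1 FPKM and 0.89 at 5 FPKM) and 0.13 over N. Il1a lay at 9.88, 4.51 and 27.4 FPKM and was highest in R. Il24 lay at 9.80, 0.535 and 10.7 FPKM, as high in N as in R. Il15, a growth factor of NK and memory T cells, lay at 3.55, 1.87 and 6.17. Il33 and Il23a lay within 2-fold. Of 12 measured checkpoint ligands 5 were 2-fold higher in R, with medians of 0.58 over P and 0.78 over N. Cd274, which encodes PD-L1, lay at 3.27, 2.02 and 28.0 FPKM, a ratio of 13.9 over P (interval 11.6 to 16.7) and 8.56 over N. Lgals9 lay at 50.4, 41.1 and 111 FPKM. Ido1, the interferon-induced enzyme of tryptophan breakdown, reached only 1.39 FPKM in R, from 0.0744 in N and 0.0322 in P. Of 12 measured adhesion and costimulation genes 1 was 2-fold higher and 1 lower, with a median of 0.0099 over P. Icam1 was the higher one, at 7.22, 3.53 and 18.2 FPKM, and H60b, a ligand of the NK cell receptor NKG2D, the lower one, at 1.08, 1.47 and 0.638. Vcam1 lay at 51.7, 43.4 and 58.4 FPKM.

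Complement and LY6 genes also stood higher in R. Of 11 measured complement genes 7 were at least 2-fold higher, with medians of 2.24 over P and 1.97 over N. The median over P was 1.14 with TPM, 0.70 with no filter and 0.61 over genes with an unshared locus. The proteases of the classical pathway were apart against both libraries. C1ra lay at 9.82, 5.15 and 45.6 FPKM and C1s1 at 9.23, 5.20 and 58.3. C4b lay at 4.24, 4.34 and 39.4 FPKM. C3, by contrast, lay at 527, 155 and 515 FPKM, equally high in N and R. Of 11 measured LY6 and GPI-anchored genes 6 were 2-fold higher in R than in P and 7 in R than in N. Ly6a, which encodes the stem cell antigen SCA-1, lay at 57.9, 37.3 and 655 FPKM, a ratio of 17.5 over P and 11.3 over N. Its value rests on assembled transcripts that span neighbouring genes of chromosome 15, and RefSeq transcripts alone gave 0.562 FPKM in P and 4.22 in R. Ly6a was the 1 gene of 13 measured breast cancer stem cell markers that was 2-fold apart. Cd44 lay at 80.3, 64.2 and 71.3 FPKM, Cd24a at 93.6, 85.3 and 96.5, and Sox9 at 39.6, 44.6 and 34.1, so that the other markers of this list stayed within 2-fold.

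Cell death genes were higher in part, among them genes that interferons are known to induce. Of 24 measured genes 7 were at least 2-fold higher and 0 lower in R than in P, with medians of 0.72 over P and 0.56 over N. Tnfsf10, the death ligand TRAIL, lay at 2.41, 1.79 and 20.0 FPKM, a ratio of 11.2. Mlkl, the executioner of necroptosis, lay at 9.70, 7.96 and 34.1 FPKM. Of 23 measured NF-kB subunits and feedback genes 2 were 2-fold higher, Nfkbiz at 26.5, 17.3 and 43.7 FPKM and Bcl3 at 25.7, 13.3 and 29.1. The median of this list was 0.34 over P and -0.0088 over N, and Nfkbia lay at 135, 86.1 and 93.4 FPKM. Nos2, which makes nitric oxide, lay at 21.2, 8.93 and 138 FPKM, while 1 of the other 7 measured genes of nitric oxide and its cofactor was 2-fold higher, Gch1 at 2.88, 1.75 and 4.15.

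**Figure D4:**
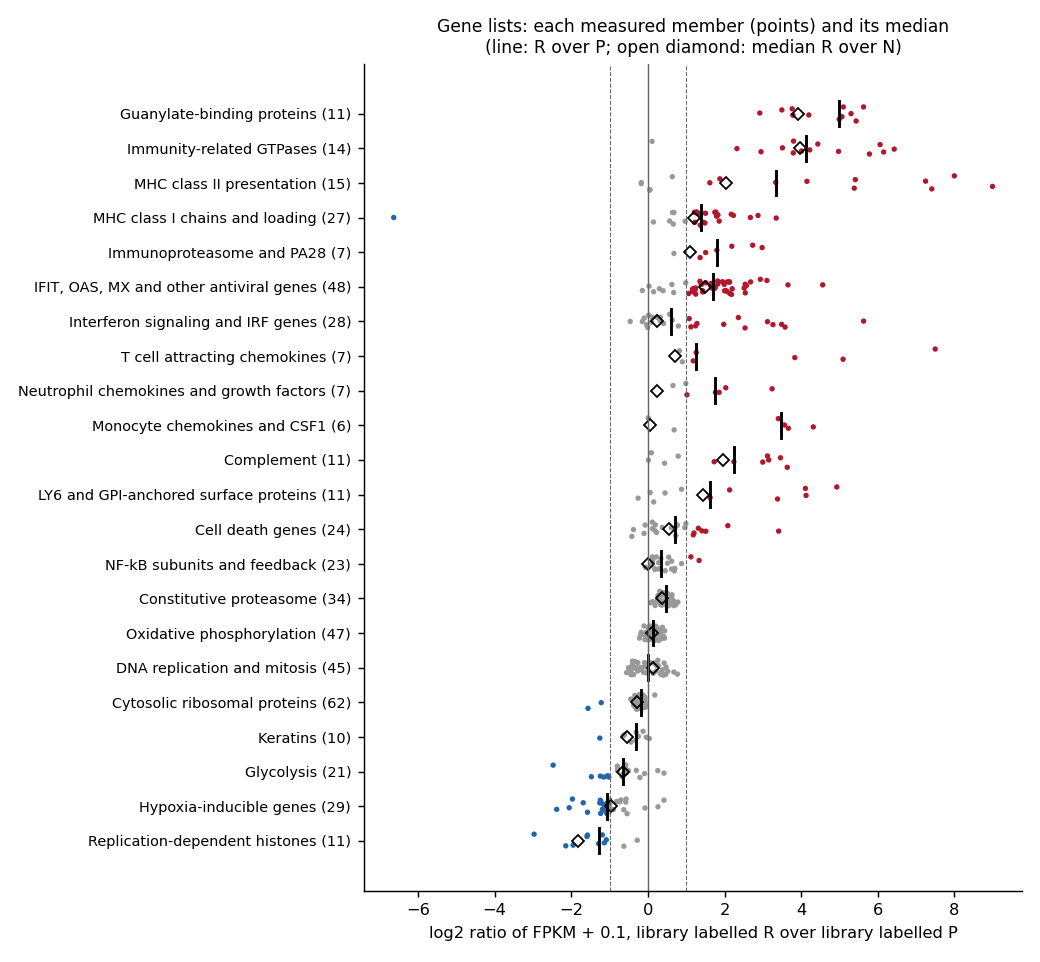
Log2 ratio of FPKM plus 0.1, R over P (horizontal), for each measured member of 22 gene lists; points are genes (red at least 2-fold higher, blue at least 2-fold lower, grey between), black lines list medians for R over P, open diamonds list medians for R over N, and dashed lines a 2-fold ratio. Line and diamond lie close for immunity-related GTPases (4.12 and 3.97) and hypoxia-inducible genes (-1.06 and -0.95); lines and diamonds cover only members that passed the filter in each comparison, which for monocyte chemokines are 6 and 9 genes.

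On the lower side, hypoxia-inducible genes were the group with the most members. Of 29 measured genes 15 were at least 2-fold lower and 0 higher in R than in P, against a background of 1.69% of genes lower, with medians of -1.06 over P and -0.95 over N. Ndrg1, a stress-induced gene of hypoxic tumor cells, lay at 811, 989.7 and 238 FPKM. It was 4.15-fold lower in R than in P (interval 4.07 to 4.23). Ero1l, an oxidase of disulfide bond formation, lay at 288, 262 and 87.9 FPKM. Adm, the vasodilator adrenomedullin, lay at 80.3, 45.2 and 13.96, and Ankrd37 at 49.3, 64.6 and 16.4. Ddit4, an inhibitor of mTORC1, lay at 340.4, 451 and 189 FPKM. In each of these genes R was lowest, and by ratio N and P lay closer to each other than to R. Vegfa, the main angiogenic factor, lay at 105, 111 and 51.6 FPKM, and P4ha2, a collagen prolyl hydroxylase, at 69.8, 78.3 and 34.8. Other targets were less apart, with Car9 at 279, 295 and 203 FPKM and Egln3 at 93.5, 89.2 and 60.1. Hk2 ran the other way, at 31.8, 37.5 and 50.3 FPKM.

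The core of the hypoxia response element, ACGTG, was searched in the same promoter windows on both strands. It was in 21.8% of all windows, in 29.9% of those of measured genes, in 41.3% of those of 92 genes at least 2-fold lower in R than in P and in 16 of 24 windows of the hypoxia list. Its share differed among lists in which 0 genes were 2-fold lower. For instance, 11 of 21 windows of lysosome genes, 6 of 12 of aminoacyl-tRNA synthetases and 7 of 35 of oxidative phosphorylation held it. The 250 bases before the start are shown for P4ha2 and Ankrd37, which both were lower, with the core on either strand in capitals. They lie at chr11:54100674-54100923 (plus strand) and chr8:45999851-46000100 (minus strand) of GRCm38.p6.
P4ha2: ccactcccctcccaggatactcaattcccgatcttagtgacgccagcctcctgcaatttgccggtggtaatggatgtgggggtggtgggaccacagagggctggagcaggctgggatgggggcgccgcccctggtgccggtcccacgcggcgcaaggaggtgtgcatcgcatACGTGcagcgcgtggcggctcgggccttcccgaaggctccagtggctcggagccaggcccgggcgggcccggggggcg
Ankrd37: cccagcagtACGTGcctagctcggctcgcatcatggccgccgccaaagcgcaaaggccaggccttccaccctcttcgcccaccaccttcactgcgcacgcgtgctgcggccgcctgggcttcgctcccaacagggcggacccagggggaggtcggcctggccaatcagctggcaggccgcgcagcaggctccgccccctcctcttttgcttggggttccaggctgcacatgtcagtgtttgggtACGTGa
The core begins 78 bases before the start in P4ha2, and 241 and 6 bases before it in Ankrd37.

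Glycolytic genes, many of which are hypoxia-inducible, lay lower by smaller ratios. Of 21 measured genes 6 were at least 2-fold lower in R than in P and 0 higher, with medians of -0.66 over P and -0.65 over N. Slc2a1, the glucose transporter GLUT1, lay at 243, 245 and 104 FPKM, a 2.36-fold difference (interval 2.29 to 2.44). Pgam1 lay at 781, 801 and 386 FPKM, Gpi1 at 567, 787 and 355, and Eno2 at 33.8, 39.6 and 14.2. The enzymes of highest level were under 2-fold apart but lower in R as well, with Pkm at 2258, 2260.3 and 1499 FPKM, Aldoa at 1786, 1801 and 1039.6 and Ldha at 1149, 1198.5 and 759.7. Gapdh is uncertain, since its RefSeq transcript is listed at 0 in N and R and at 42.0 FPKM in P. Genes of oxidative phosphorylation did not share this direction, since 0 of 47 were 2-fold apart and their median was 0.13 over P.

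**Figure D5:**
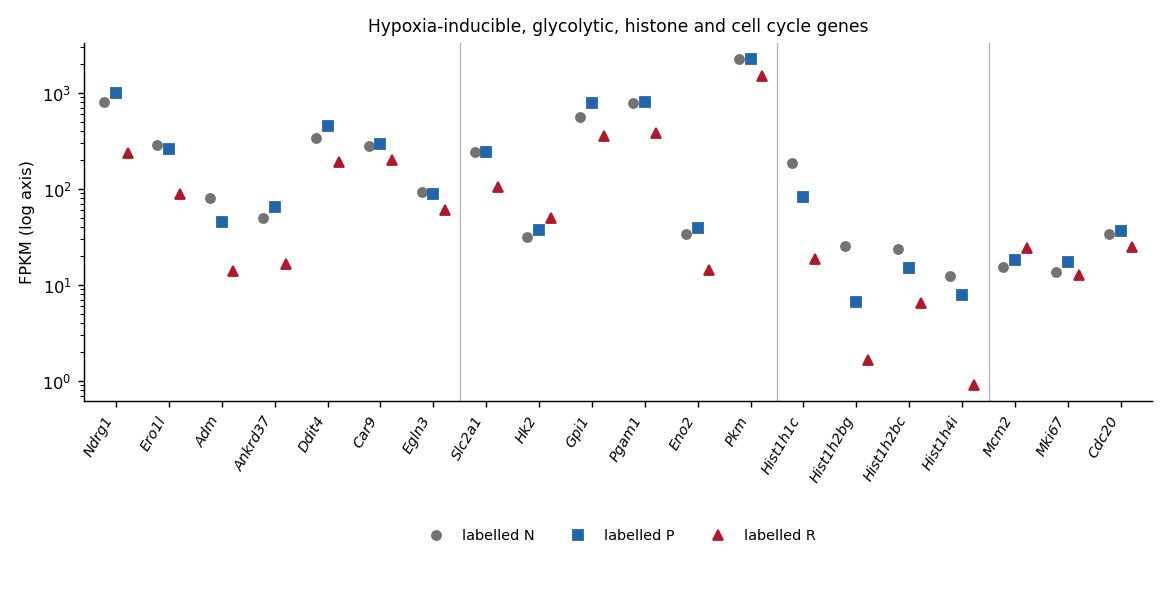
FPKM (log axis) of 20 genes in the libraries labelled N (grey circles), P (blue squares) and R (red triangles), 1 library each, for hypoxia-inducible, glycolytic, histone and cell cycle genes from left to right with vertical lines between lists. R is lowest for the hypoxia-inducible genes shown, for example Ndrg1 at 238 FPKM against 989.7 in P, and for the histone genes, while Hk2 and Mcm2 are highest in R.

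Replication-dependent histone genes also lay lower in R. Of 31 annotated genes 11 were measured, and of these 9 were at least 2-fold lower in R than in P, with a median of -1.29. Among the 11, 5 were under 1 FPKM in R, and the median was -0.75 with no filter and -1.95 at 5 FPKM. Over N the median of 20 measured genes was -1.83 with 17 lower. By symbol, the wider Hist family had 15 of 24 measured genes at least 2-fold lower in R than in P. It had 1 that was higher, Hist2h2aa2, with a log2 ratio of 3.62 for R over P. Hist1h1c, the linker histone H1.2, lay at 187, 82.2 and 18.5 FPKM. Hist1h2bg lay at 25.2, 6.66 and 1.65 FPKM, and Hist1h4i at 12.2, 7.76 and 0.904. All 3 were highest in N and lowest in R. These genes lie in clusters of near copies, and most of their transcripts lack poly(A) tails. How RNA was selected for sequencing is not given in the sources used here. Genes of DNA replication and mitosis did not go with them. Of 45 measured genes 0 were 2-fold apart, with a median of -0.00010 over P. Within this list the replication licensing gene Mcm2 lay at 15.3, 18.2 and 24.3 FPKM and was highest in R, while Cdc20, an activator of mitotic exit, lay at 34.0, 36.3 and 24.7 and Mki67 at 13.5, 17.3 and 12.6.

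Structural and mesenchymal genes gave a few lower members, against a background of 1.69% of genes lower and 4.15% higher. In several of the lists below this was 1 gene. Of 10 measured keratins Krt14 was the 1 that was 2-fold lower, at 32.3, 33.6 and 14.04 FPKM, and Krt18 lay at 779, 653 and 528. Among the 10, 2 were under 1 FPKM in R. The keratin median was -0.31 over P (-0.13 with no filter) and -0.53 over N. Of 19 measured mesenchymal genes 3 were 2-fold lower, and 2 of the 19 were under 1 FPKM in R. Among the lower ones S100a4, a calcium-binding protein of mesenchymal cells, lay at 221, 331 and 160.0 FPKM. Vim stayed within 2-fold, at 1162, 1449 and 878 FPKM, and the factor Twist1 was highest in R, at 40.4, 37.3 and 45.0. Of 15 measured genes of the list of matrix metalloproteinases and their inhibitors 1 was higher and 1 lower. Its median was 0.061 over P and -0.42 over N. The lower one, tissue plasminogen activator Plat, lay at 8.92, 9.37 and 3.81 FPKM. The higher one was Mmp13, with a log2 ratio of 1.35 for R over P. Hspa1a and Hspa1b, the inducible HSP70 pair, lay at 20.0 and 75.7 FPKM in R and at 41.3 and 154 in P. They were the 2 of 18 heat shock genes that were 2-fold lower than in P. Over N 3 were lower, with Hspb1 at 15.5, 8.07 and 5.56 FPKM. Dusp1, a phosphatase that ends MAP kinase signals, lay at 55.3, 75.6 and 17.6 FPKM, and was the 1 of 27 measured immediate early genes that was 2-fold lower. In that list 2 were higher, Fosl1 at 19.4, 19.2 and 42.7 FPKM and Atf3 at 15.5, 5.55 and 13.4. Of 17 measured genes of the Wnt, Notch and Hedgehog list 2 were higher and 1 lower, with a median of -0.021 over P. Sfrp1, a secreted Wnt antagonist, lay at 9.74, 2.74 and 17.5 FPKM and Id3 at 27.3, 16.9 and 61.7, while Hey1, a Notch target, lay at 1.59, 4.84 and 0.819.

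Several large groups were close to equal. Of 62 measured cytosolic ribosomal protein genes 2 were 2-fold lower (Rpl30 and Rpl26, which share loci with other symbols), with a median of -0.18 over P and -0.28 over N. The shift was small but 1-sided, since only 1 of the 62 had a log2 ratio above 0 for R over P. Of 23 measured cholesterol genes 0 were 2-fold apart, with medians of 0.30 over P and 0.38 over N. Of 20 aminoacyl-tRNA synthetases 0 were apart, with a median of 0.28, and of 25 ATF4 targets 1 was lower, Ddit4. Asns, which makes asparagine, lay at 4.20, 6.42 and 12.4 FPKM. Of 27 glutathione and NRF2 genes 3 were 2-fold higher, among them Gclm, the regulatory subunit of glutathione synthesis, at 8.13, 4.65 and 17.2 FPKM. Of 28 lysosome genes and 18 autophagy genes 0 were apart over P. Over N 1 autophagy gene was 2-fold lower in R, Gabarap at 90.9, 57.8 and 36.5 FPKM. Of 20 collagen and matrix genes 2 were higher, Lama3 at 12.7, 7.38 and 17.1 FPKM and Tnc at 2.01, 1.78 and 4.07.

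The genes of highest and lowest log2 ratio with at least 5 FPKM in either library lay mostly in the families above. The 12 highest were H2-Aa, H2-Eb1, Cxcl9, H2-Ea-ps, H2-DMb1, H2-DMb2, Tgtp1, Hba-a1, Mpeg1, Ubd, Plac8 and Tgtp2. H2-Aa, H2-Ea-ps, Hba-a1, Ubd and Plac8 are listed at 0 in the library labelled P. Ubd, the ubiquitin-like modifier FAT10, lay at 0.373 FPKM in N and 7.08 in R. Hba-a1, a globin of red cells, lay at 3.99 FPKM in N and 7.49 in R, and its copy Hba-a2 at 30.2, 29.5 and 16.6. The 12 lowest were Hprt, H2-Q1, Hist1h2ao, Hist1h4i, Gapdh, Smtnl2, Hist1h1c, Dusp1, Ndrg1, Ankrd37, Sept5 and Hist1h2bg. The low value of Hprt, a housekeeping gene at 22.7 FPKM in N and 23.8 in P, goes with an assembled transcript that spans Phf6 and Hprt and was at 16.2 FPKM in R and 0 in the other libraries. Smtnl2 lay at 6.02, 5.11 and 0.970 FPKM, a 5.27-fold difference between P and R (interval 3.86 to 7.32).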

How the data were processed

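RNA of 3 libraries, 1 per label, was read. The authors used HISAT2 (version 2.2.0) for alignment and StringTie for quantification (2.1.3 per the submitters' processing notes, 2.1.5 per the file headers). For each RefSeq or assembled transcript they deposited FPKM, TPM and coverage. The notes name mm9, but 99.4% of 23147 matched symbols overlap their gene in GRCm38, so positions are GRCm38. The sources used here do not give RNA selection, strand setting or read filters.

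Gene levels are sums of FPKM over 34970 RefSeq transcripts and those of the assembled transcripts that lay in a locus of 1 symbol (8207) or overlapped exons of 1 symbol most (1143). The remaining 3170, which carry 12.1% (N), 12.2% (P) and 10.6% (R) of FPKM, were set aside for lack of a gene. Of 24402 symbols 1478 share a locus. Exact zeros can be failed estimates, so no linear ratio or interval was formed against a library listed at 0. Log2 ratios used FPKM plus 0.1, which understates low genes, and through it genes listed at 0 enter counts, medians and rankings (19 of the 465 higher genes at 0 in P, 2 of the 189 lower at 0 in R). Fragments were taken as aligned bases divided by 300, and intervals are exact Clopper-Pearson intervals at 95%, for counting error only. With 1 library per condition no test was run. A gene was called higher or lower when its ratio reached 2-fold and either library had at least 1 FPKM.

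The genes and the 57 lists (48 pathway lists and 9 marker lists) were chosen with earlier results of these data known. The rule for named genes took the 12 highest and 12 lowest log2 ratios among genes of at least 5 FPKM without predicted genes, microRNAs, snoRNAs and genes with no coding RefSeq transcript, up to 4 members per list with the largest ratios and its most abundant member, and the 8 highest and 8 lowest symbol families of at least 6 genes. Other genes and the promoters were chosen with their values known. Some genes that the rule took are not reported here. Counts and intervals were tested on simulated data. Alternatives were TPM, pseudocounts of 1 and 0.01, no filter or 5 FPKM, rescaling by the median ratio, RefSeq transcripts alone, the most abundant transcript, genes with an unshared locus, the library labelled N in place of P, and leaving out leukocyte markers. Scripts ran in Python 3.11.15 (SciPy 1.17.1, NumPy 2.4.6, pandas 2.3.3), and figures were drawn with Matplotlib 3.10.9.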

Additional observations from a re-analysis of the deposited data

Results flagged for a closer look

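Of 3170 assembled transcripts with no gene symbol in the files, which enter no gene level above, 9 had at least 5 FPKM in the library labelled R and at least 10-fold the level of both other libraries, and 5 were at least 10-fold lower in R than in P. Genes at their positions were read from the GENCODE annotation of GRCm38. Transcripts over immunoglobulin constant genes were among the 9. One over Ighm on chromosome 12 lay at 0.596 FPKM in N, 0 in P and 8.32 in R, and another over Igkc on chromosome 6 lay at 8.03 FPKM in R and is listed at 0 in N and P. Another 3 lay over the MHC class I genes H2-Q6, H2-Q7 and H2-Q10 on chromosome 17, at 8.59, 8.45 and 7.54 FPKM in R and listed at 0 in N and P. The highest lay over Gm21887 on chromosome X, at 20.7 FPKM in R, 0.559 in P and 0 in N. The others lay over Gm6311 on chromosome 13 (13.8 FPKM in R), over Gm8995 on chromosome 7 (12.4 FPKM in R, 0.969 in N and 0.992 in P) and over Srp54b and Srp54c on chromosome 12 (6.72 FPKM in R).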

How the results depend on the processing

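The direction of 25 list medians of at least 0.5 in size held in 264 of 269 values over the alternatives. The 5 exceptions are marker lists, namely NK and cytotoxic cells (0 with no filter), B and plasma cells (-0.19 at 5 FPKM and -0.31 over N), macrophages (-0.13 over N) and neutrophils (-0.49 over N). The count of higher genes was 891 with no filter and 725 with the most abundant transcript. The count of lower genes was 374 with TPM, 82 with a pseudocount of 1, 563 with no filter, 83 at 5 FPKM, 380 with RefSeq transcripts and 411 with the most abundant transcript. TPM is about 2.70 times FPKM here, so the same filter and pseudocount act on lower levels. With N in place of P, list medians were 2.04 (MHC class II), 1.20 (class I), 1.10 (immunoproteasome), 3.92 (guanylate-binding proteins), 1.48 (antiviral), 0.23 (interferon signaling), 0.71 (T cell chemokines), 0.24 (neutrophil factors) and -0.0088 (NF-kB). MHC class II gave 1.89 with a pseudocount of 1, 1.88 with no filter, 4.36 at 5 FPKM and 1.75 with unshared loci. Class I gave 1.24 and the immunoproteasome 1.65 with unshared loci. Guanylate-binding proteins gave 4.41 with a pseudocount of 1, 4.83 with RefSeq transcripts, 4.84 with the most abundant transcript and 4.28 with unshared loci. Immunity-related GTPases gave 3.65 with a pseudocount of 1 and 5.51 with RefSeq transcripts. RefSeq transcripts gave 0.75 for interferon signaling, 1.44 for neutrophil factors and 0.41 for cholesterol genes. Neutrophil factors gave 1.42 with TPM and 0.99 with no filter, and glycolysis -0.62 with TPM. Beyond the effect of TPM, the cause of these moves was not tested. Rescaling by the median ratio (1.01) moved none of the pathway medians named in this paragraph beyond its counting interval. Leaving out leukocyte markers did not either, but it drops only the marker genes themselves. It therefore cannot show how much leukocyte RNA enters the values of other genes. No paired analysis was possible because each condition is 1 library.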
